A study of Mus musculus with 12 samples.

Results

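Copper importers, copper chaperones and pumps, drug efflux transporters and metallothioneins were followed in kidneys of the inbred mouse strain C57BL/6 after cisplatin with or without the compound 84-B10. They are 10 genes, Slc31a1, Slc31a2, Atox1, Atp7a, Atp7b, Slc47a1, Abcc2, Abcc4, Mt1 and Mt2, chosen by name for their known handling of copper or platinum. All 10 were present among the 19036 genes of the table of FPKM, a read level scaled for gene length and sequencing depth. RNA of whole kidney was sequenced in 12 libraries, labelled as biological replicates, 4 in each of 3 groups. The combination group received cisplatin at 25 mg/kg by intraperitoneal injection and 84-B10, known here by its code name only, at 15 mg/kg, begun 48 h before it and continued daily. The cisplatin group received cisplatin at 25 mg/kg, and one protocol text of the labels says that it had 84-B10 pretreatment too, while the design text gives that pretreatment only to the combination group. The vehicle group received saline by the same route. All mice were killed at 72 h, no allele or transgene is named, and mice given 84-B10 alone were not analysed here.

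Cisplatin is a platinum drug taken up by proximal tubule cells, where it binds DNA and thiols. The copper transporter CTR1, encoded by Slc31a1, and the organic cation transporter OCT2 carry it into cells. Inside, the chaperone encoded by Atox1 hands copper to the pumps ATP7A and ATP7B, which also bind platinum, and the exchanger MATE1 (Slc47a1) and the pump MRP2 (Abcc2) export platinum or its glutathione conjugate into urine. Metallothioneins are small cysteine-rich proteins that bind zinc, copper and platinum, and their genes are switched on through metal response elements by the transcription factor MTF1. Glucocorticoids also induce them.

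Mt1 and Mt2 had the largest changes of the 10 genes after cisplatin, and their promoters are shown here because both carry several copies of the metal response element core. In the RefSeq sequences of build GRCm38.p6, which may not be the build used by the authors, the pair lies on the plus strand of mouse chromosome 8 with start sites 6471 bases apart. Each window below runs 5′ to 3′ on the gene's own strand and covers 300 bases, most of them before the annotated start, and capitals mark every core, spelled TGCACNC or TGCGCNC on either strand. The window of Slc31a1, shown as a gene that fell, is on the plus strand of chromosome 4 and holds no core; Slc31a2 lies on the same chromosome.
Mt1 at chr8:94178839-94179138: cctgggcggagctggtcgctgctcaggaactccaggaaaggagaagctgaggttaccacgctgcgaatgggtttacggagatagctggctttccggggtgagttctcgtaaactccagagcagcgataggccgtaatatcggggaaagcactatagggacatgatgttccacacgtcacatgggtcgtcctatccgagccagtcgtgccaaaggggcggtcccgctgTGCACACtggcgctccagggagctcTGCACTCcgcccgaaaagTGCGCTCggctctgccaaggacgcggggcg
Mt2 at chr8:94172368-94172667: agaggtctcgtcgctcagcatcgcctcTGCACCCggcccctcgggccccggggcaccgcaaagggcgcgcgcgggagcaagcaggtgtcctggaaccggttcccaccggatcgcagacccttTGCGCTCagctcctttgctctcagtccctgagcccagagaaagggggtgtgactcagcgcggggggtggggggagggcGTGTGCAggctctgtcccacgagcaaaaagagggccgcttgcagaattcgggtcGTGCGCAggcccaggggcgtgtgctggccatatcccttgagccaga
Slc31a1 at chr4:62360451-62360750: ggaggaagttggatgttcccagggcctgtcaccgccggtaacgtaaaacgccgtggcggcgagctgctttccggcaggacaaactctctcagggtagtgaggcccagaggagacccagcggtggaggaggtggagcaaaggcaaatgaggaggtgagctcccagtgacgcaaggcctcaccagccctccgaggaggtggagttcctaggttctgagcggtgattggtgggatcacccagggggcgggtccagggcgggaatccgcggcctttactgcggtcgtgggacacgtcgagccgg
The Mt1 window held 3 cores, all on the strand of the gene, and the Mt2 window held 4, of which 2 were on the opposite strand. The Mt1 cores began at positions -23, 3 and 21 from the annotated start. Of 32851 promoter windows of the same length, 25.7% held at least 1 core, 1.97% at least 3 and 0.517% at least 4. Windows were found for 9 of the 10 genes. Atp7a had 2 cores, 1 window of Abcc4 had 2, Slc31a2 and Atp7b had 1 each, and Atox1, Abcc2 and the other window of Abcc4 had none. The antioxidant response element core TGACNNNGC, the site of Nrf2, was present once in the windows of Slc31a2, Atox1, Abcc2 and Mt2 and in both windows of Abcc4, against 12.4% of all windows, and overlapped no metal response element core. These matches are descriptions of letters and were not tested as binding sites. Windows follow the annotated starts, and cores of either kind outside them were not searched for.

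**Figure D1:**
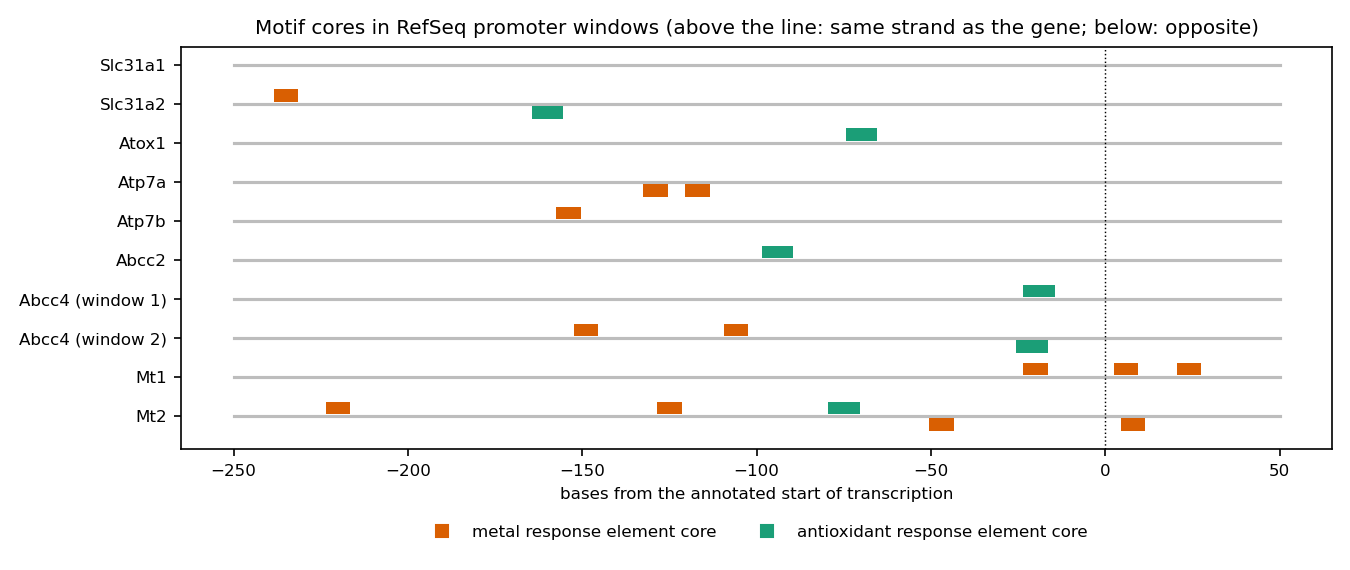
Positions of metal response element cores (orange) and antioxidant response element cores (green) in the RefSeq promoter windows of 9 genes, in bases from the annotated start of transcription; marks above a line are on the strand of the gene and marks below it on the opposite strand. Mt1 and Mt2 hold 3 and 4 orange marks, and Slc31a1 holds none.

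Levels were tested as log2(FPKM + 1) with limma over 12428 genes with at least 1 FPKM in at least 4 libraries, with Benjamini-Hochberg adjustment; passing means an adjusted p under 0.05. Fold changes are on that log2 scale with their standard errors (SE), and levels are mean ± SD of 4 libraries. Of the 10 genes 9 entered the test; Atp7b lay under 1 FPKM in every library. After cisplatin 7 of the 9 rose and 2 fell, Slc31a1 and Slc47a1, whereas over all genes 78.1% changed, 56.3% upward and 21.8% downward. The median log2 fold change of the 9 was 0.72 and that of all genes tested 0.26. Cisplatin and vehicle libraries did not overlap for those 9 genes, as for 71.6% of all genes, so that a count of changed genes near the total is common to this comparison. Median-of-ratios scaling moved the median of all genes by -0.25 on the log2 scale in this comparison and the split of calls to 4618 higher and 4602 lower, against 6999 higher and 2711 lower without it; among the 9 it ended the call of Abcc2 alone.

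Estimated count totals were 15.76 M to 18.17 M in the 10 libraries with an assigned count column, and cisplatin libraries 1 and 2 had none. The tissue carried its segment markers: the summed FPKM of 12 proximal tubule markers was 1755 to 3391 in combination kidneys, 1671 to 3120 in cisplatin kidneys and 11610 to 12030 in vehicle kidneys. All 12 fell in cisplatin against vehicle kidneys. Of 10 leukocyte markers, 7 were tested, 4 rose and 1 fell, with sums of 99.9 to 119.5 FPKM in combination kidneys, 84.2 to 106.8 in cisplatin kidneys and 19.6 to 22.6 in vehicle kidneys. Much of that sum was Cd68, a lysosomal macrophage marker, at 77.4 ± 7.67 FPKM in combination kidneys, 64.1 ± 11.3 FPKM in cisplatin kidneys and 1.96 ± 0.355 FPKM in vehicle kidneys, whereas Ptprc, the general leukocyte marker CD45, was the one that fell (-0.28, limma adjusted p = 0.00308). None of these markers was at 0 throughout a group, though Adgre1 and Cx3cr1, macrophage markers, and Cd3e, a T cell marker, stayed under 1 FPKM on average in each group. Of 6 liver markers 5 were tested, 3 rose and 2 fell, and Cps1 was at 0.015 FPKM or less on average in each group. In whole tissue, fewer cells of a type and less RNA per cell cannot be told apart, and the part of cell composition in the changes below was not tested.

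**Figure D2:**
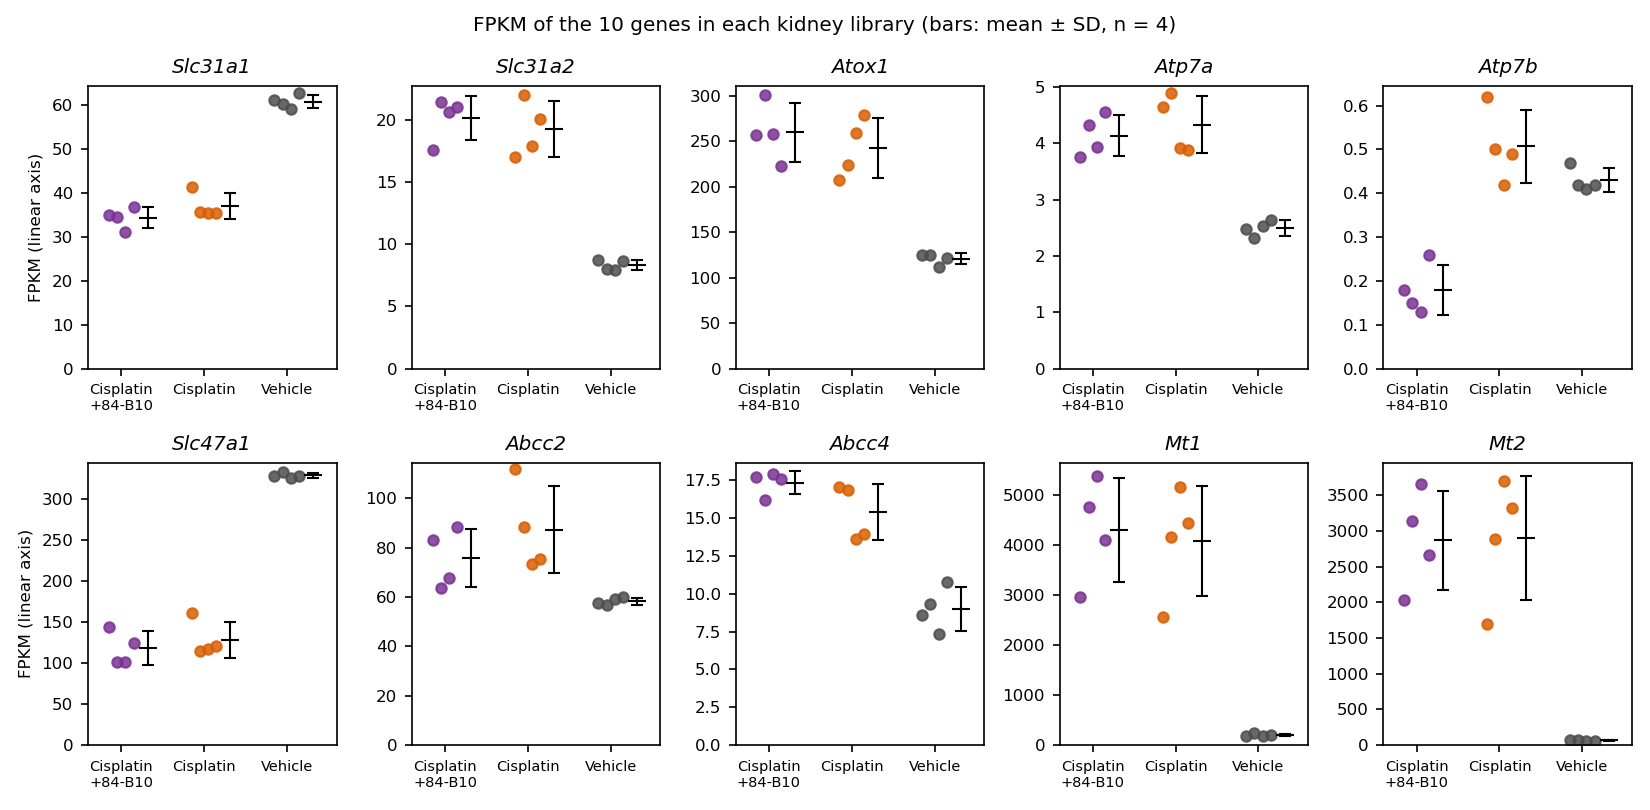
FPKM of each of the 10 genes (linear axes from 0, scaled per gene) in 4 libraries of each group, shown as points, with the mean and SD beside them. Cisplatin and vehicle libraries separate for every gene except Atp7b, for which the combination libraries at 0.13 to 0.26 FPKM lie below all others.

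The metallothioneins stood among the most abundant transcripts of the injured kidney. Mt1 had 2960.4, 4754, 5393 and 4111 FPKM in combination libraries 1 to 4, 2561, 4167, 5159 and 4449 FPKM in cisplatin libraries 1 to 4, and 184, 234, 179 and 210.2 FPKM in vehicle libraries 1 to 4. Every library given cisplatin was far above every vehicle library, and library 1 was the lowest of both cisplatin-treated groups. Mt1 (NCBI gene 17748) averaged 4084 ± 1097 FPKM in cisplatin kidneys and 202 ± 25.6 FPKM in vehicle kidneys, 20.2-fold higher (log2 fold change 4.29, SE 0.21, limma adjusted p = 6.25e-10). For Mt2 (NCBI gene 17750) the combination libraries held 2028, 3148, 3654 and 2664 FPKM, the cisplatin libraries 1691, 2890.2, 3706 and 3324 FPKM, and the vehicle libraries 63.6, 68.1, 62.2 and 61.6 FPKM. The order of libraries within the cisplatin-treated groups was the same as for Mt1, and vehicle libraries were tightly grouped. Mt2 averaged 2903 ± 874 FPKM in cisplatin kidneys and 63.9 ± 2.93 FPKM in vehicle kidneys, a 45.5-fold difference (log2 fold change 5.43, SE 0.22, limma adjusted p = 7.68e-11).

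The rise of Mt2 exceeded that of Mt1, so that the pair drew closer in level. The ratio of Mt1 to Mt2 FPKM was 1.46, 1.51, 1.48 and 1.54 in combination libraries, 1.51, 1.44, 1.39 and 1.34 in cisplatin libraries, and 2.89, 3.44, 2.88 and 3.41 in vehicle libraries. Mt1 stayed above Mt2 in all 12. The difference of their log2(FPKM + 1) was 0.51 ± 0.08 in cisplatin kidneys and 1.64 ± 0.14 in vehicle kidneys, lower by a change of -1.13 (exact permutation of libraries, two-sided, p = 0.0286, the smallest that 4 against 4 allow; adjusted p = 0.0381 over 12 such tests). Together the pair took 0.907 to 1.61% of the total FPKM of combination libraries, 0.811 to 1.56% in cisplatin libraries and 0.0428 to 0.0532% in vehicle libraries. Mt1 ranked 5 to 10 among all genes by FPKM in combination libraries, 6 to 11 in cisplatin libraries and 368 to 485 in vehicle libraries. Their coding sequences are similar, and reads may have been divided between the 2 genes. Mt3, a metallothionein known mainly from brain, averaged 2.49 ± 0.838 FPKM in cisplatin kidneys and 0.825 ± 0.0645 FPKM in vehicle kidneys and also rose (0.91, SE 0.18, limma adjusted p = 0.000407), while Mt4 was listed at 0 in all vehicle libraries and averaged 0.04 FPKM in cisplatin kidneys.

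**Figure D3:**
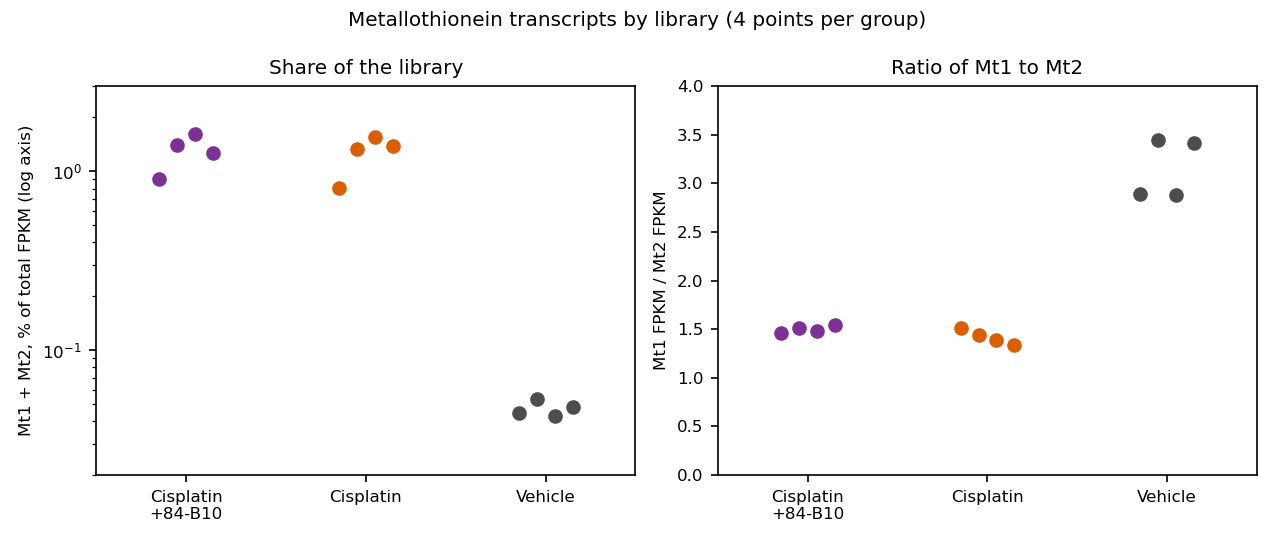
Left, the share of total FPKM taken by Mt1 and Mt2 together in each library (log axis, percent); right, the ratio of Mt1 to Mt2 FPKM. Libraries given cisplatin lie between 0.811 and 1.61% with ratios of 1.34 to 1.54, and vehicle libraries between 0.0428 and 0.0532% with ratios of 2.88 to 3.44.

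The 2 copper transporters of the Slc31 family moved in opposite directions. Slc31a1 (NCBI gene 20529), the high-affinity copper importer, had 35.1, 34.5, 31.1 and 36.8 FPKM in combination libraries, 41.5, 35.7, 35.4 and 35.4 FPKM in cisplatin libraries, and 61.1, 60.3, 59.1 and 62.8 FPKM in vehicle libraries. Vehicle libraries all lay above the others, and cisplatin library 1 stood above its 3 companions. Slc31a1 averaged 37.0 ± 2.99 FPKM in cisplatin kidneys and 60.8 ± 1.55 FPKM in vehicle kidneys and fell (log2 fold change -0.71, SE 0.06, limma adjusted p = 2.11e-07). Slc31a2 (NCBI gene 20530) encodes CTR2, a related protein of endosomes and lysosomes that in mouse cells limits copper and platinum accumulation. Its values were 17.6, 21.4, 20.6 and 21.0 FPKM in combination libraries, 17.0, 22.0, 17.9 and 20.1 FPKM in cisplatin libraries, and 8.69, 7.98, 7.95 and 8.63 FPKM in vehicle libraries. Both cisplatin-treated groups lay above the vehicle group without overlap. At 19.2 ± 2.25 FPKM in cisplatin kidneys and 8.31 ± 0.402 FPKM in vehicle kidneys, Slc31a2 rose by 1.11 (SE 0.08, limma adjusted p = 2.88e-08). The difference of log2(FPKM + 1) between Slc31a1 and Slc31a2 was 0.91 ± 0.25 in cisplatin kidneys and 2.73 ± 0.04 in vehicle kidneys, a change of -1.82 (p = 0.0286 and adjusted p = 0.0381 by exact permutation).

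Atox1 (NCBI gene 11927), the cytosolic copper chaperone, was the most abundant of the non-metallothionein genes after cisplatin. It had 257, 301, 258 and 222 FPKM in combination libraries, 208, 224, 259 and 279 FPKM in cisplatin libraries, and 125, 124, 112 and 121 FPKM in vehicle libraries. Each library given cisplatin exceeded each vehicle library. Atox1 averaged 242 ± 32.6 FPKM in cisplatin kidneys and 120.5 ± 6.08 FPKM in vehicle kidneys and rose (log2 fold change 0.99, SE 0.10, limma adjusted p = 7.32e-07).

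Atp7a (NCBI gene 11977), the copper pump that is mutated in Menkes disease, was expressed at a low level, with 3.75, 4.32, 3.93 and 4.55 FPKM in combination libraries, 4.64, 4.89, 3.92 and 3.88 FPKM in cisplatin libraries, and 2.48, 2.31, 2.54 and 2.64 FPKM in vehicle libraries. It rose in cisplatin against vehicle kidneys (0.61, SE 0.08, limma adjusted p = 6.53e-06). Atp7b (NCBI gene 11979), the pump of Wilson disease, had 0.18, 0.15, 0.13 and 0.26 FPKM in combination libraries, 0.62, 0.50, 0.42 and 0.49 FPKM in cisplatin libraries, and 0.47, 0.42, 0.41 and 0.42 FPKM in vehicle libraries. Cisplatin and vehicle libraries overlapped for it, whereas all 4 combination libraries lay below the other 8. Within libraries, the difference of log2(FPKM + 1) of Atp7b and Atp7a was -1.82 ± 0.11 in cisplatin kidneys and -1.29 ± 0.07 in vehicle kidneys, a change of -0.53 (p = 0.0286 and adjusted p = 0.0381 by exact permutation).

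Of the 3 apical exporters, Slc47a1 fell and Abcc2 and Abcc4 rose. Slc47a1 (NCBI gene 67473), the proton exchanger that passes organic cations and cisplatin into urine, had 144, 101.3, 102 and 125 FPKM in combination libraries, 161, 114, 117 and 121 FPKM in cisplatin libraries, and 329, 333, 326 and 329 FPKM in vehicle libraries. The vehicle libraries differed little among themselves and lay above all others, and cisplatin library 1 was again the highest of its group. The gene averaged 128 ± 22.3 FPKM in cisplatin kidneys and 329 ± 2.77 FPKM in vehicle kidneys and fell by 1.37 on the log2 scale (SE 0.12, limma adjusted p = 1.93e-07). In cisplatin library 1 the summed proximal tubule markers were also highest, at 3120 FPKM against 1671 to 1819 in the other cisplatin libraries. The part of that in the levels of Slc47a1 and Slc31a1 was not tested. Without cisplatin library 1, both genes still fell, Slc47a1 by 1.48 and Slc31a1 by 0.76.

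Abcc2 (NCBI gene 12780), which encodes MRP2, had 83.1, 63.7, 67.8 and 88.3 FPKM in combination libraries, 111.8, 88.5, 73.5 and 75.5 FPKM in cisplatin libraries, and 57.4, 56.7, 59.0 and 59.9 FPKM in vehicle libraries. The cisplatin-treated libraries spread widely but all lay above the vehicle libraries. Abcc2 rose by 0.56 (SE 0.13, limma adjusted p = 0.00112), a call that was lost with median-of-ratios scaling (0.27, limma adjusted p = 0.0679) and with edgeR's quasi-likelihood test on the counts of 10 libraries (0.09, adjusted p = 0.469). Abcc4 (NCBI gene 239273), which encodes the nucleotide and organic anion pump MRP4, had 17.7, 16.2, 17.9 and 17.6 FPKM in combination libraries, 17.1, 16.9, 13.6 and 13.9 FPKM in cisplatin libraries, and 8.59, 9.30, 7.31 and 10.8 FPKM in vehicle libraries. No vehicle library reached the lowest of the others. Abcc4 rose in cisplatin against vehicle kidneys (0.72, SE 0.10, limma adjusted p = 1.81e-05). The difference of log2(FPKM + 1) between Abcc2 and Abcc4 was 2.42 ± 0.15 in cisplatin kidneys and 2.58 ± 0.21 in vehicle kidneys and did not pass (p = 0.257 and adjusted p = 0.28 by exact permutation).

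**Figure D4:**
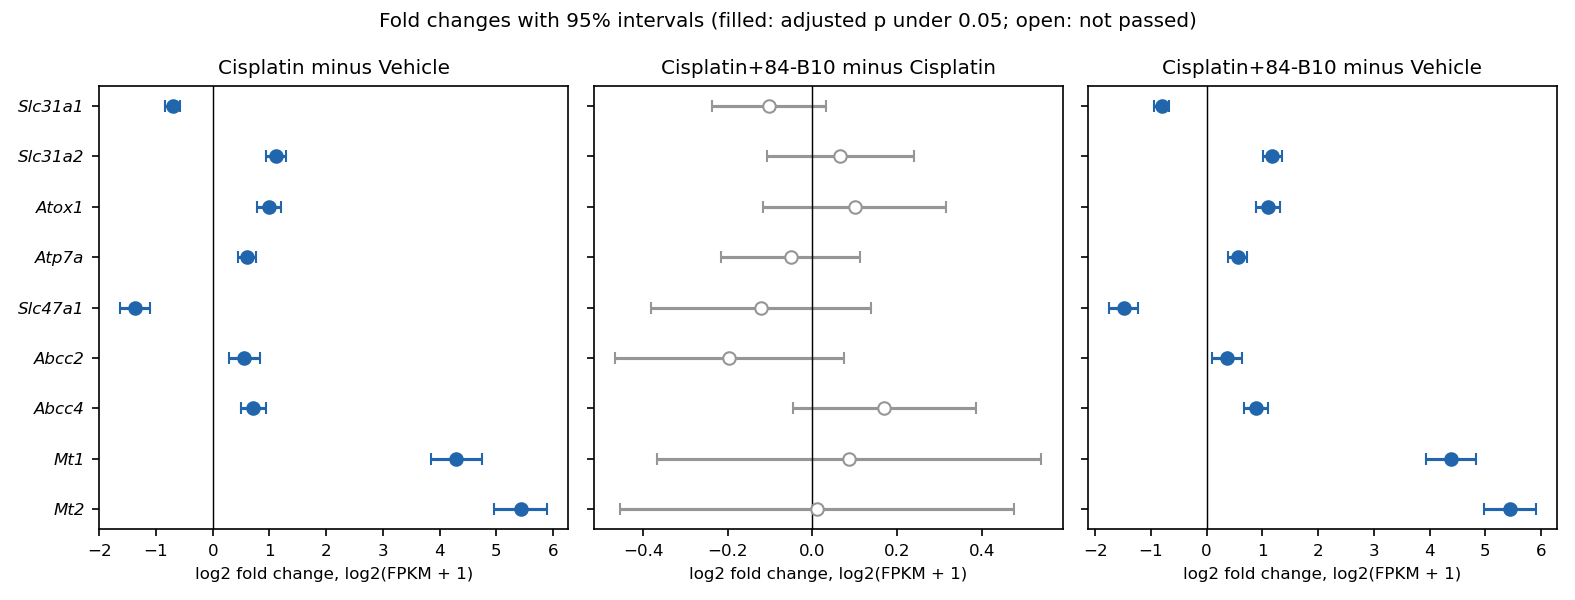
Log2 fold changes with 95% intervals from limma for the 9 genes tested (the axis of the middle panel is narrower). Mt1 and Mt2 lie at 4.29 and 5.43 in cisplatin against vehicle kidneys, Slc31a1 and Slc47a1 lie below 0, and every interval of combination against cisplatin spans 0.

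Between combination and cisplatin kidneys none of the 9 genes tested passed limma, and over all genes 2.21% did, 0.435% upward and 1.78% downward. At an unadjusted p under 0.05 the count was also 0, and edgeR and DESeq2 on counts called none of these 9. The largest differences were those of Abcc2 (-0.20, 95% interval -0.47 to 0.07, limma adjusted p = 0.4997) and Abcc4 (0.17, 95% interval -0.05 to 0.39, limma adjusted p = 0.459). For Mt1 the difference was 0.09 (95% interval -0.37 to 0.54) and for Mt2 0.01 (-0.45 to 0.48), so that a linear ratio of combination to cisplatin kidneys between 0.776 and 1.46 for Mt1 lay within the interval. Slc31a1 differed by -0.10 (-0.24 to 0.03), Slc47a1 by -0.12 (-0.38 to 0.14), Slc31a2 by 0.07 (-0.11 to 0.24), Atox1 by 0.10 (-0.12 to 0.32) and Atp7a by -0.05 (-0.22 to 0.11). Groups overlapped for all 9, where 8.24% of the genes tested did not overlap. Leaving out cisplatin library 1 gave -0.12 for Mt1 and -0.23 for Mt2, so the sign of these small differences rests on single libraries.

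Atp7b, at under 1 FPKM in every library, was lower in combination than in cisplatin kidneys. It averaged 0.18 ± 0.057 FPKM in combination kidneys and 0.508 ± 0.083 FPKM in cisplatin kidneys. No combination library overlapped a cisplatin library, which held for 1 of the 10 genes and for 8.24% of the genes tested. Its estimated counts were 18, 16, 11 and 23.04 in combination libraries 1 to 4, 42.9 and 50.05 in cisplatin libraries 3 and 4, and 42, 37, 39 and 37 in vehicle libraries 1 to 4. With edgeR's quasi-likelihood test on these 10 libraries Atp7b fell by 1.46 in combination against cisplatin kidneys (adjusted p = 0.00508 over 14831 genes) and by 1.62 in combination against vehicle kidneys (adjusted p = 1.1e-05). Limma without a filter on low values also called the first (-0.35 on the log2(FPKM + 1) scale, adjusted p = 0.00189), and the edgeR call was lost without cisplatin library 4 (-1.37, adjusted p = 0.0893), which leaves 1 cisplatin library with counts that is assumed to vary like the other groups. Leaving libraries out of the edgeR test was a check chosen after the data were seen. Between cisplatin and vehicle kidneys edgeR gave -0.16 (adjusted p = 0.533). The within-library difference of Atp7b and Atp7a was -2.12 ± 0.08 in combination kidneys and -1.82 ± 0.11 in cisplatin kidneys, a change of -0.30. The change became -1.07 with a pseudocount of 0.1 (p = 0.0286 and adjusted p = 0.0381 by exact permutation with either). Without any 1 of the 4 combination libraries its adjusted p was 0.0761. That test has fewer arrangements and so coarser p-values. Whichever library was left out, the change lay between -0.353 and -0.266. Of 8 loop and distal tubule markers, Slc12a1, the salt transporter of the thick ascending limb (-2.40, SE 0.32, limma adjusted p = 0.000906), and Umod, which encodes uromodulin (-1.40, SE 0.23, limma adjusted p = 0.00476), also fell in this comparison, with list sums of 262 to 383 FPKM in combination kidneys and 332 to 600.1 FPKM in cisplatin kidneys. The other 6 did not pass limma: Slc12a3 (0.41), Calb1 (0.25), Pvalb (0.14), Kcnj1 (-0.18), Cldn16 (-0.32) and Egf (-0.72). Of these, edgeR and DESeq2 called Cldn16 alone, as lower. The part of these markers in the difference of Atp7b was not tested.

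The difference of log2(FPKM + 1) between Abcc2 and Abcc4 was 2.05 ± 0.19 in combination kidneys and 2.42 ± 0.15 in cisplatin kidneys, lower by a change of -0.37 (p = 0.0286 and adjusted p = 0.0381 by exact permutation). Without any 1 of the 4 cisplatin libraries its adjusted p was 0.0623 to 0.0761, in a test with fewer arrangements and so coarser p-values. Whichever library was left out, the change lay between -0.437 and -0.292.

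Combination and vehicle kidneys differed for the same 9 genes in the same directions, 7 upward and 2 downward, where 79.2% of all genes changed, 56.6% upward and 22.6% downward. This comparison shares its combination libraries with the previous one and its vehicle libraries with the first, and its values stand beside those as a description. Mt1 averaged 4304 ± 1038 FPKM in combination kidneys and 202 ± 25.6 FPKM in vehicle kidneys (4.38, SE 0.21, limma adjusted p = 4.39e-10), and Mt2 averaged 2874 ± 694 FPKM in combination kidneys and 63.9 ± 2.93 FPKM in vehicle kidneys (5.44, SE 0.22, limma adjusted p = 6.51e-11). Slc47a1 fell by 1.49 and Slc31a1 by 0.81, and Slc31a2 rose by 1.18, Atox1 by 1.09, Abcc4 by 0.89 and Atp7a by 0.55. Abcc2 rose by 0.36 (limma adjusted p = 0.0176), a call lost without combination library 1 (limma adjusted p = 0.0508) or 4 (0.0611). It was also lost with median-of-ratios scaling (0.06, limma adjusted p = 0.667), with quantile normalization (limma adjusted p = 0.111) and with edgeR (0.09, adjusted p = 0.375). All 10 genes had groups that did not overlap, against 74.8% of the genes tested.

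The related genes were read from lists of copper, zinc and platinum biology. Of 25 genes of copper handling 8 rose, 7 fell and 10 did not pass in cisplatin against vehicle kidneys, with a median log2 fold change of -0.10 beside 0.26 for all genes; edgeR and DESeq2 each called 7 higher and 13 lower. Cp, which encodes the plasma copper oxidase ceruloplasmin, rose by 3.70 (SE 0.08), to 65.5 ± 2.32 FPKM in cisplatin kidneys, against 4.13 ± 0.649 FPKM in vehicle kidneys (limma adjusted p = 2.12e-13). The metal reductase gene Steap2 rose by 1.45 and Loxl4, a copper-dependent lysyl oxidase gene, by 1.26. Loxl4 was low, with 1.655 FPKM in cisplatin and 0.11 FPKM in vehicle kidneys, and edgeR gave 3.55 for it. Among the fallers, chosen after their values were seen, were Sod1, the copper and zinc superoxide dismutase (-0.54), and Ccs, the chaperone that loads it (-0.32). Cox17, a copper chaperone of cytochrome oxidase, did not pass (0.18, limma adjusted p = 0.134). In combination against cisplatin kidneys 1 of the 25 passed limma and edgeR and 2 passed DESeq2: Cp was lower, at 45.4 ± 3.09 FPKM in combination kidneys and 65.5 ± 2.32 FPKM in cisplatin kidneys (-0.52, SE 0.08, limma adjusted p = 0.00272). Sod1 did not pass limma (-0.15, adjusted p = 0.364) or edgeR (-0.28, adjusted p = 0.0563). It was the other gene that DESeq2 called lower (-0.28, adjusted p = 0.0038). Ceruloplasmin is made mainly in liver, and the 6 liver markers summed to 73.8 to 81.0 FPKM in combination kidneys, 155 to 219.6 in cisplatin kidneys and 112 to 211.5 in vehicle kidneys. In combination against cisplatin kidneys 2 of the 5 tested were lower, Serpina1a (-2.31) and Apoc3 (-1.13). Ttr (-0.61), Apoa1 (-0.50) and Alb (0.08) did not pass limma. After cisplatin, Apoc3 (3.24), Serpina1a (3.11) and Apoa1 (1.82) rose, and Ttr (-2.01) and Alb (-1.25) fell. The part of the liver markers in the level of Cp was not tested.

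Of 21 genes of zinc transport, with MTF1 among them, 19 were tested, and 10 rose and 6 fell after cisplatin (median 0.21 beside 0.26 for all genes), while edgeR and DESeq2 each called 9 higher and 9 lower. Slc39a14, an importer of zinc and iron, rose by 1.62 (SE 0.08, limma adjusted p = 7.6e-10) and the zinc importer gene Slc39a1 by 1.24, whereas Slc39a11 fell by 1.48. Mtf1, the metal-sensing factor of the metallothionein genes, rose by 0.59 (limma adjusted p = 4.16e-06), and Slc30a1, another known target of MTF1 that exports zinc, did not pass (0.21, limma adjusted p = 0.0687, and -0.20 with edgeR); both were chosen after their values were seen. In combination against cisplatin kidneys Slc39a11 (-1.05, SE 0.08, limma adjusted p = 8.76e-06) and Slc39a8, an importer of zinc and manganese (-1.24, SE 0.17, limma adjusted p = 0.00112), fell and 17 did not pass. At an unadjusted limma p under 0.05 there were 7 of the 19, with no share of all genes to set beside that count. EdgeR and DESeq2 each called 2. Slc39a8 averaged 3.08 ± 0.588 FPKM in combination kidneys and 8.62 ± 1.51 FPKM in cisplatin kidneys. The 7 glucocorticoid-induced genes had 5 that rose and 2 that did not pass after cisplatin (median 1.07 beside 0.26 for all genes, of which 56.3% rose). The risers were led by the transcription factor gene Zbtb16 (2.99), the chaperone gene Fkbp5 (1.30) and the clock gene Per1 (1.07). Those that did not pass were Dusp1 (-0.05, limma adjusted p = 0.827) and Tsc22d3 (-0.05, limma adjusted p = 0.755). EdgeR called 4 higher, without Klf9, and DESeq2 called 3 higher, without Klf9 and Sgk1, and Tsc22d3 lower. Between combination and cisplatin kidneys 0 of the 7 passed limma, 0 at an unadjusted p under 0.05, and 0 by edgeR or DESeq2.

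Of 9 other efflux pumps 8 were tested, and 6 rose and 2 fell after cisplatin (median 0.47 beside 0.26 for all genes, of which 56.3% rose and 21.8% fell). EdgeR and DESeq2 each called 4 higher and 2 lower, without Abcc5 and Abcc10. Abcb1b, a multidrug pump gene of the P-glycoprotein family, rose by 2.97 (SE 0.10), to 20.1 ± 1.94 FPKM in cisplatin kidneys, against 1.69 ± 0.349 FPKM in vehicle kidneys (limma adjusted p = 1.76e-11). Abcc3, a basolateral relative of MRP2, rose by 1.26, with 1.845 FPKM in cisplatin and 0.1825 FPKM in vehicle kidneys (3.085 with edgeR). Abcc6 fell by 1.25, with 1.12 FPKM in cisplatin and 4.05 FPKM in vehicle kidneys (-2.20 with edgeR). At such low levels the pseudocount makes the limma fold changes smaller. Slc47a2, the second MATE gene, averaged 0.155 FPKM in cisplatin kidneys and 0.09 FPKM in vehicle kidneys and was too low to test. In combination against cisplatin kidneys 0 of the 8 passed limma, edgeR or DESeq2 and 1 had an unadjusted limma p under 0.05; Abcg2, the most abundant, had -0.10 (limma adjusted p = 0.451). Among other entry routes, the organic cation transporter gene Slc22a2 fell after cisplatin (-1.33, SE 0.15, limma adjusted p = 2.48e-06), and 4 subunits of the volume-regulated anion channel rose with limma, among them Lrrc8b (0.53). EdgeR and DESeq2 called none of these 4, with 0.25 for Lrrc8b (edgeR adjusted p = 0.063), and edgeR gave -0.15 for Lrrc8d, against 0.17 with limma. Another subunit gene, Lrrc8e, averaged 0.875 FPKM in cisplatin kidneys and 0.28 FPKM in vehicle kidneys and was too low for limma. Both edgeR (1.33, adjusted p = 0.00055) and DESeq2 (1.32, adjusted p = 0.000147) called Lrrc8e higher after cisplatin. Slc22a2, which encodes OCT2, averaged 50.2 ± 10.7 FPKM in combination kidneys and 79.5 ± 17.3 FPKM in cisplatin kidneys and fell in that comparison too (-0.65, SE 0.15, limma adjusted p = 0.0438). Of the 12 proximal tubule markers 2 fell in combination against cisplatin kidneys, Slc7a13 (-1.42, limma adjusted p = 0.0383) and Aqp1 (-0.82, limma adjusted p = 0.0426), and 10 did not pass. The median of the 12 was 0.19, beside 0.016 for all genes. EdgeR and DESeq2 called Slc7a13 lower but did not call Aqp1 (adjusted p = 0.0976 with edgeR and 0.135 with DESeq2). The part of these markers in the level of Slc22a2 was not tested. Of 7 enzymes that form or process cisplatin conjugates 3 rose and 3 fell after cisplatin (edgeR and DESeq2 each called 2 higher and 4 lower), with Ggt1, the brush border gamma-glutamyl transferase (-1.89), and the dipeptidase gene Dpep1 (-1.92) lower and the glutathione transferase gene Gstm1 (0.67) higher. Gstm1 belongs to a family of close paralogs whose reads may be shared. In combination against cisplatin kidneys 0 of the 7 passed limma and 4 had an unadjusted limma p under 0.05. EdgeR and DESeq2 each called 2, Gstm1 and Kyat1, a cysteine conjugate beta-lyase gene. The unadjusted, edgeR and DESeq2 counts have no share of all genes beside them and are not read as high or low.

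**Figure D5:**
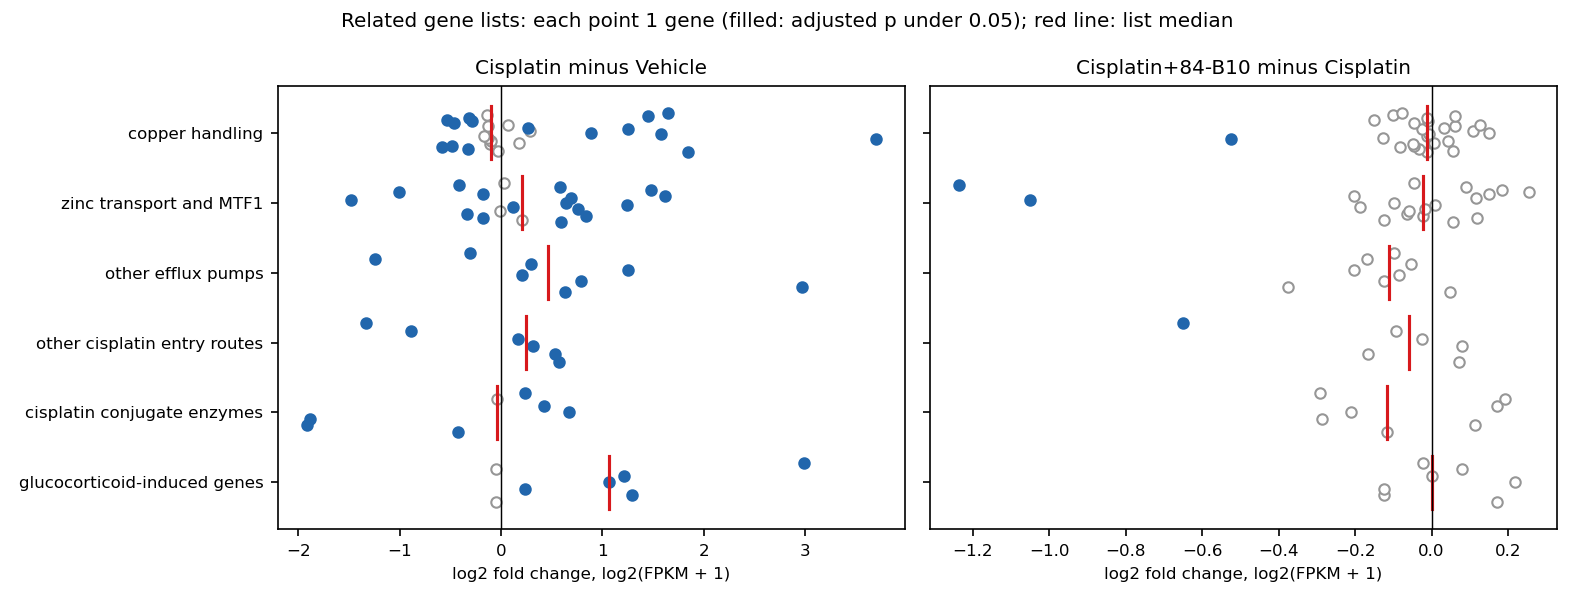
Log2 fold changes of the genes tested in 6 related lists, 1 point per gene (filled where the limma adjusted p was under 0.05), with the list median as a red line; the 2 panels have different axes. After cisplatin Cp at 3.70, Abcb1b at 2.97 and Zbtb16 at 2.99 lie farthest to the right, and between combination and cisplatin kidneys the filled points are Cp, Slc39a11, Slc39a8 and Slc22a2.

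Likeness of pattern was measured as the root mean square difference of log2(FPKM + 1), centred per gene, over the 12 libraries. The values were not scaled, so genes that change in the same order of libraries but by different amounts lie apart. Slc47a1 was nearest to Agxt2 (0.051), a mitochondrial aminotransferase gene, and to Abhd14b (0.065). The nearest genes to Slc31a1 were Fgfr3, a fibroblast growth factor receptor gene, and Ccpg1 (0.046 and 0.047), and those to Atp7a were Notch2 and Mier3 (0.037 and 0.041). Atox1 was nearest to Rps20, a ribosomal protein gene (0.066), and Abcc4 to Zfp995 (0.10). Mt1 had no gene as near, with Psrc1 at 0.20 and Zfp972 at 0.21, and Mt2 was its neighbour of rank 65 among 12427 genes at 0.52. Mt2 was nearest to Gprc5a (0.25) and Phlda3 (0.26).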

How the data were processed

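Kidney RNA sequencing libraries were grouped by the group named in each title, 4 per group. The FPKM were made by the authors and deposited per library; the submitters' processing notes list the tools RSEM 1.2.12, HISAT2 2.0.4 and Bowtie2 2.2.5, with no role for any. Library kit, strand, genome build and annotation: not given in the sources used here. The authors also deposited estimated counts (34.3% are not whole), rounded here; their columns are headed Cis (cisplatin), Ctrl (taken as vehicle) and HD (taken as the combination, the group left). A further 14 per-sample columns, 12 repeating a library heading and 2 with none, were not used, and no count column was assigned to cisplatin libraries 1 and 2.

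Log2(FPKM + 1) was fitted in R 4.3.3 with limma 3.58.1 (3 group means, 12 libraries, 9 residual degrees of freedom, mean trend), two-sided, with Benjamini-Hochberg adjustment over 12428 genes with at least 1 FPKM in at least 4 libraries. FPKM fold changes understate low genes. Counts at an unadjusted p under 0.05 are printed without the share of all genes at that threshold, so none is read as high or low. List counts from edgeR and DESeq2 also stand without such a share, and cover only genes that limma tested. FPKM were tested because they cover all 12 libraries; edgeR 4.0.16 and DESeq2 1.42.0 on 14831 genes were alternatives. Differences between 2 genes within libraries were compared by exact permutation (70 arrangements for 4 against 4, and fewer where a library was left out). Both the limma and the edgeR code were tested on simulated data with known changes. Other alternatives were a pseudocount of 0.1, no filter, a mean of at least 5 FPKM, 3 other scalings, a replicate block, 2-group fits and leaving out each library.

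The genes and lists were chosen with earlier results of these data known. Named genes were all 10, up to 3 passing genes per list and comparison with the largest moderated statistic, the most abundant gene not passing, and the 2 nearest patterns per gene; from these a selection is printed. The labels do not say whether equal replicate numbers share a litter or day, so a p-value covers the spread from library to library. No pair of libraries had identical FPKM, and replicate counts differed beyond sampling noise (chi-square over degrees of freedom 4.53 or more). One listed gene is not reported here.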

Additional observations from a re-analysis of the deposited data

Results flagged for a closer look

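In 30 groups of 4 libraries (10 genes in 3 groups), 3 held a library farther from the others than Dixon's 95% limit; chance flags about 1 in 20 groups. Cisplatin library 1 had 41.5 FPKM of Slc31a1, where the other 3 had 35.4 to 35.7. The same library had 161 FPKM of Slc47a1, where the other 3 had 114 to 121. Vehicle library 1 had 0.47 FPKM of Atp7b, where the other 3 had 0.41 to 0.42.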

How the results depend on the processing

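Against vehicle, Slc31a1, Slc31a2, Atox1, Atp7a, Slc47a1, Abcc4, Mt1 and Mt2 kept direction and call under every alternative that tested them; Atp7a falls out of the filter of a mean of 5 FPKM. Abcc2 also lost its call with DESeq2, at 0.08 in cisplatin and 0.08 in combination against vehicle kidneys. The cause was not tested. Between combination and cisplatin kidneys, 1 gene of the 10, Atp7b, was called with no filter, with edgeR and with DESeq2, since these tested it. Over all genes, 275 were called in this comparison, 176 with a fit of the 2 groups only and 444 with DESeq2; leaving out single libraries gave 152 to 298, with 178 without cisplatin library 4, 158 without combination library 2 and 152 without combination library 3.

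Small differences between combination and cisplatin kidneys changed sign, none with a call. With limma on the 10 libraries with counts they were -0.05909 for Atox1, 0.06559 for Atp7a, 0.0102 for Abcc2, -0.19 for Mt1 and -0.32 for Mt2. With edgeR they were -0.07403 for Atox1, 0.05654 for Atp7a, -0.18 for Mt1 and -0.31 for Mt2, and with DESeq2 -0.07147, 0.05896, -0.18 and -0.31, with 0.001158 for Abcc2. Mt2 was -0.00255 with quantile normalization and -0.00826 with rescaling to TPM. Leaving out single libraries gave -0.12 to 0.26 for Mt1 and -0.23 to 0.17 for Mt2.

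Leaving out single libraries, the within-library change in combination against cisplatin kidneys ranged from -0.3528 to -0.2656 for Atp7b minus Atp7a, from -0.4371 to -0.2916 for Abcc2 minus Abcc4 and from 0.04737 to 0.1067 for Mt1 minus Mt2, which passed without cisplatin library 1 (adjusted p = 0.0381, exact permutation). For Abcc2 minus Abcc4 against vehicle it ranged from -0.5973 to -0.435, and did not pass without combination library 2 or 3 or vehicle library 3 (adjusted p = 0.0761 each, exact permutation). Tests with a library left out have fewer arrangements, so a lost call there does not by itself show a weaker difference.

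Same-numbered libraries of the combination and cisplatin groups had correlations of 0.561, 0.249, 0.373 and -0.238 in their deviations from group means, so the numbers were not taken as pairs; the replicate block gave 316 genes called in place of 275, 9696 in place of 9710 and 9826 in place of 9847, and changed no call among the 9 genes tested; Atp7b was not fitted with the block. The estimated counts of Atp7b, 11 to 50.05 in a library, limit its precision.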
